A study of Mus musculus with 5 samples.

Results

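The interferon receptors and the Janus kinases were followed here as 8 genes chosen by symbol: the type I interferon receptor chains Ifnar1 and Ifnar2, the interferon-gamma receptor chains Ifngr1 and Ifngr2, and the kinases Jak1, Jak2, Jak3 and Tyk2. All 8 were present among the 27726 genes that every library lists. They were measured in group 2 innate lymphoid cells (ILC2s) sorted from the lungs of wild-type C57BL/6 female mice, 4 to 8 weeks old and 5 per group, as Lin- ST2+ CD127+ Thy1.2+ CD45+ cells. The naive library came from mice without a tumour and was not activated. The tumour-associated (ta) libraries came from mice that received TC1 tumour cells under the skin of the right flank. Cells taken at week 2 or 3 (wk2, wk3) were either captured fresh (ta-non-activated, 2 libraries) or first cultured for 7 days with IL-2, IL-33 and TSLP at 10 ng/mL each (ta-activated, 2 libraries). Each library was 1 capture of single cells by 10x 3' sequencing, so the naive group had no replicate, and the 2 libraries of a ta group differed in week as well as in capture. Culture and cytokines were applied together and cannot be told apart.

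Interferons signal through paired receptor chains, each of which holds a Janus kinase on its inner side. Type I interferons bind Ifnar1 with Ifnar2, which use Tyk2 and Jak1, and interferon-gamma binds Ifngr1 with Ifngr2, which use Jak1 and Jak2. The kinases phosphorylate signal transducers such as Stat2, which with Irf9 switches on interferon-stimulated genes. Jak3 is not part of this route and serves receptors that share the common gamma chain, such as those for IL-2 and IL-7, both of which ILC2s carry. The question put to the data was whether the receptor genes are lower where the interferon-stimulated genes are higher.

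Of the 4 receptor genes, 3 lie in a row on chromosome 16 (GRCm38, plus strand): Ifnar2 at 91372783 to 91405589, Ifnar1 at 91485238 to 91507441 and Ifngr2 at 91547072 to 91565623, with Il10rb between the first pair. Ifngr1 is on chromosome 10 at 19591949 to 19610229 (plus strand). Ifnar2 overlaps Gm21970 on the same strand, so reads of the shared part cannot be given to 1 gene and its level is uncertain. The 250 bases before each start (RefSeq, GRCm38.p6) were found for all 8 genes and searched on both strands for the gamma-activated site TTCNNNGAA and for the interferon-stimulated response element core (GAAA, any 2 bases, GAAA). The first was present in 1 of the 8, Ifnar2, and in 7.02% of 32851 such windows, and the second in none of the 8 and in 2.98% of windows. The window of Ifnar2 is shown for its match, in capitals, and that of Ifngr1 because that gene had the widest range of levels.
Ifnar2, chr16:91372533-91372782, plus strand: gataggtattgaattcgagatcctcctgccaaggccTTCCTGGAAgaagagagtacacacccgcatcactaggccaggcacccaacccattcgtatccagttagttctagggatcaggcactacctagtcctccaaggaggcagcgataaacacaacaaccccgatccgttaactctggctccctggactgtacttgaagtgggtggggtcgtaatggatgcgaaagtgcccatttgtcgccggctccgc
Ifngr1, chr10:19591699-19591948, plus strand: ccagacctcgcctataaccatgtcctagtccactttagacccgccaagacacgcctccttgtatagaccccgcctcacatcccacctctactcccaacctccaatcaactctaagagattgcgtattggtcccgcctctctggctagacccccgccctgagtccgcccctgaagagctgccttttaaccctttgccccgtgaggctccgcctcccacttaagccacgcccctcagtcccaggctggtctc

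After barcodes with fewer than 200 genes or with 5% or more mitochondrial counts were removed, 6389, 1823, 1601, 2895 and 3822 cells remained in the naive, wk2 ta-non-activated, wk3 ta-non-activated, wk2 ta-activated and wk3 ta-activated libraries. Depth was unequal, with medians of 4517, 16090, 4396, 13636 and 12296.5 unique molecular identifiers (UMIs, counted molecules) per cell. Any pair of libraries shared 1 to 8 barcodes. Clusters with ILC2 markers that were not cycling made up 84.1%, 89.6%, 45.2%, 72.2% and 79.3% of the cells of the respective libraries. These ILC2-like cells carry the results that follow. Cycling ILC2-like clusters were kept apart, with 189 cells in wk2 ta-non-activated, 632 in wk2 ta-activated and 539 in wk3 ta-activated. The wk3 ta-non-activated library stood apart, with 877 of 1601 cells in other clusters, where the summed T cell marker level was 8372 CPM (summed counts scaled to the same total) and the ILC2 marker level was 168 CPM. Its ILC2-like cells also had the lowest ILC2 marker level, 4792 CPM, against 7820 CPM in the naive library and 9427 to 12124 CPM in the others. In 7 of the 20 ILC2-like clusters the 10 leading genes held 1 marker of another cell type and no ILC2 marker. These marker-flagged clusters included cluster 0 of the wk2 ta-activated library, through Epcam, and cluster 1 of the wk3 ta-activated library, through Ccr6. Values without those 7 clusters are given beside the tests. The rule that named the clusters was written after they had been seen. All intervals cover counting error only.

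The interferon-stimulated list, 31 genes such as Ifit1, Isg15 and Irf7, marks where the response was high. Its summed level in ILC2-like cells was 272 CPM in the naive, 497 CPM in the wk2 ta-non-activated and 342 CPM in the wk3 ta-non-activated library, and 6471 CPM and 11396 CPM in the wk2 and wk3 ta-activated libraries. The list was thus more than 10-fold higher in both cultured libraries than in any fresh one. A second list of 18 genes was made mainly of the guanylate-binding proteins (GBP), the immunity-related GTPases (IRG), Irf1 and Cxcl10, which interferon-gamma induces strongly. This second list stood at 219, 644, 276, 2892 and 2019 CPM in the same order.

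Among the receptor genes, Ifngr1, the ligand-binding chain for interferon-gamma, had the widest range. Its level in ILC2-like cells was 322 CPM in the naive library (95% Poisson interval 315 to 329), 33.1 CPM in wk2 ta-non-activated (31.0 to 35.3), 440 CPM in wk3 ta-non-activated (413 to 469), 51.0 CPM in wk2 ta-activated (48.7 to 53.3) and 47.8 CPM in wk3 ta-activated (45.8 to 49.8). The naive and wk3 ta-non-activated libraries were high and the other 3 were low. The lowest value was in wk2 ta-non-activated, where the interferon-stimulated list was far below its level in the ta-activated libraries. The GBP and IRG list stood higher there, at 644 CPM, than in the naive (219 CPM) and wk3 ta-non-activated (276 CPM) libraries. The 3 libraries with low Ifngr1 were thus the 3 with the highest GBP and IRG level. As a mean over cells, which gives shallow cells more weight, Ifngr1 in the ta-activated libraries was at 86.5 CPM in wk2 and 61.8 CPM in wk3. After every cell was thinned to 2000 UMIs, to remove the difference in depth, the share of ILC2-like cells with an Ifngr1 UMI kept the order of the summed levels, at 39.8%, 6.73%, 46.7%, 12.2% and 10.95%.

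**Figure D1:**
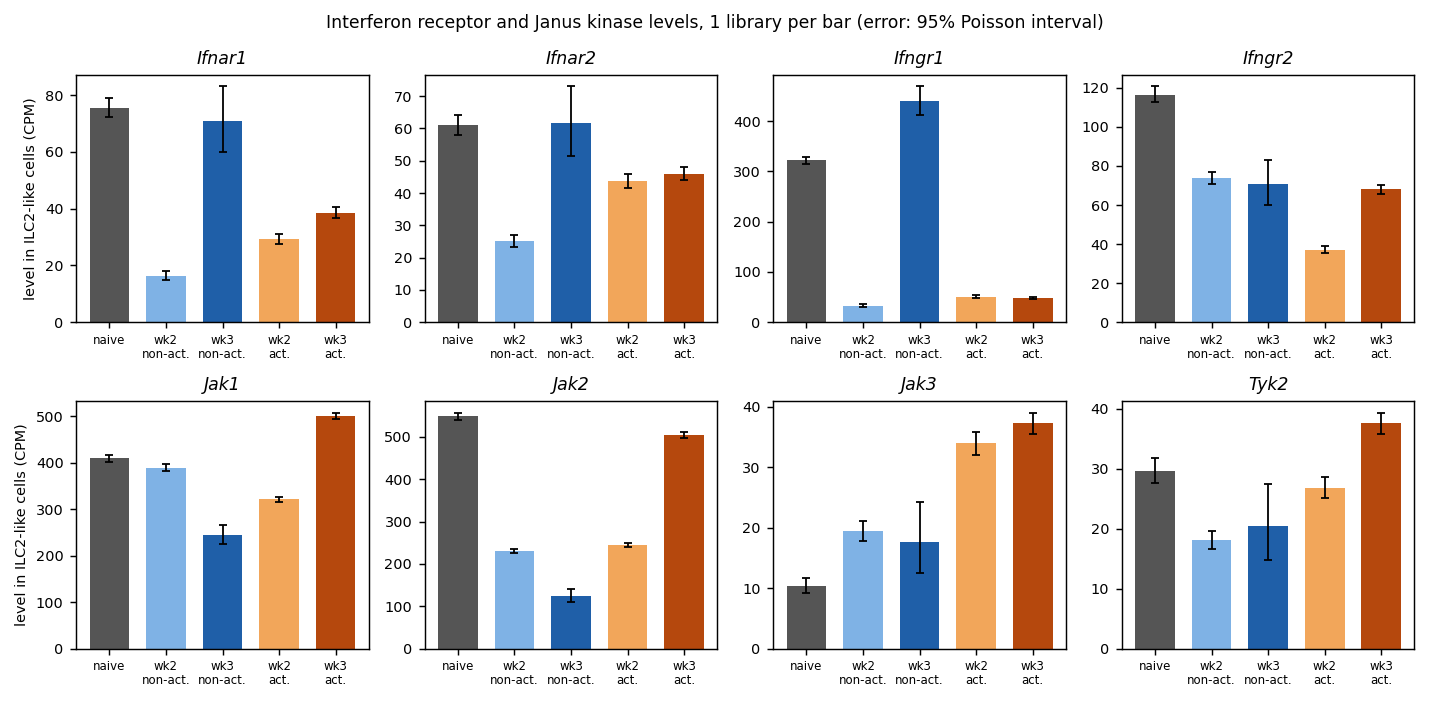
Level of each gene in ILC2-like cells (CPM, linear axes from 0 that differ between genes), with 1 bar per library and the 95% Poisson interval, which covers counting error only. Ifngr1 stands at 322 and 440 CPM in the naive and wk3 ta-non-activated (non-act.) libraries and at 33.1 to 51.0 CPM in the other 3, and Jak3 is highest in the 2 ta-activated (act.) libraries.

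Ifnar1, the chain that binds Tyk2, measured 75.4, 16.4, 70.9, 29.2 and 38.6 CPM in the naive, wk2 ta-non-activated, wk3 ta-non-activated, wk2 ta-activated and wk3 ta-activated libraries. Like Ifngr1 it was lowest in the fresh wk2 library. The naive and wk3 ta-non-activated values did not differ beyond counting error, and the ta-activated values lay between the 2 ta-non-activated ones. Ifnar2, the chain that binds Jak1, measured 61.1, 25.1, 61.6, 43.7 and 46.0 CPM in the same order, again with the naive and wk3 ta-non-activated libraries together at the top and wk2 ta-non-activated at the bottom. Ifngr2, the accessory chain for interferon-gamma, measured 117, 73.9, 70.9, 37.2 and 68.0 CPM. The naive library was highest for Ifngr2, the wk2 ta-activated library was lowest, and the other 3 lay from 68.0 to 73.9 CPM. For Ifngr2 both ta-activated libraries were below both ta-non-activated ones, but the interval of wk3 ta-non-activated (60.1 to 83.1) held the wk3 ta-activated value.

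All 4 receptor genes were therefore lower in both ta-activated libraries than in the naive one, but against the 2 ta-non-activated libraries only Ifngr2 was lower in both. For Ifnar1, Ifnar2 and Ifngr1 the lowest value of all was in the fresh wk2 library. Of the 8 genes, 4 were lower than naive by 2-fold or more in wk2 ta-non-activated, 1 in wk3 ta-non-activated, 4 in wk2 ta-activated and 1 in wk3 ta-activated. Over all 11161 genes at a mean of 1 CPM or more, the shares lower by 2-fold or more were 31.2%, 21.9%, 25.3% and 22.6%. Jak3 was higher by 2-fold or more in both ta-activated libraries, and the shares of genes higher to that extent were 18.5%, 4.47%, 16.9% and 16.8% in the same order. These ratios are of 1 naive library and have no test. Ratios to naive moved with intron length, being lower for long genes. The median log2 ratio of genes in the same decile of intron length as Ifngr1, Ifnar1 and Ifngr2 lay between 0.10 and 0.43, while these 3 genes were lower than naive in both ta-activated libraries. The Ifngr1 log2 ratio to naive was -3.24 in wk2 ta-non-activated, 0.45 in wk3 ta-non-activated, -2.64 in wk2 ta-activated and -2.73 in wk3 ta-activated.

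Among the kinases, Jak1, which serves both interferon receptors, measured 410, 390, 245, 321 and 502 CPM in the naive, wk2 ta-non-activated, wk3 ta-non-activated, wk2 ta-activated and wk3 ta-activated libraries. Its highest level was in the library with the highest interferon-stimulated list and its lowest in wk3 ta-non-activated. Jak2, the kinase of the Ifngr2 chain, measured 548, 230, 125, 245 and 504 CPM. The naive and wk3 ta-activated libraries were both high for Jak2, and the 2 wk2 libraries were close at 230 and 245 CPM whether fresh or cultured. The median log2 ratio of genes in the same decile of intron length as Jak2 was -0.29 to -0.62 over the 4 ta libraries. With that median subtracted, Jak2 was under 2-fold from naive in both wk2 libraries, at -0.62 in wk2 ta-non-activated and -0.56 in wk2 ta-activated on the log2 scale. For Jak1, which has 105689 bases of intron, the median of such genes was -0.87 to -1.51 while its own log2 ratios were -0.74 to 0.29.

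Jak3 measured 10.4, 19.4, 17.6, 33.9 and 37.2 CPM in that order. Both ta-activated libraries were above both ta-non-activated ones, which were above naive, and its log2 ratios to naive were 1.62 and 1.75 in the ta-activated libraries. The last bases of Jak3 overlap Insl3 on the same strand, where 3' reads cannot be given to 1 gene, so its level is uncertain in every library. Tyk2, which docks on Ifnar1, measured 29.6, 18.1, 20.4, 26.8 and 37.6 CPM, the highest of them in wk3 ta-activated. The 2 ta-non-activated values of Tyk2 did not differ beyond counting error, nor did those of Jak3.

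Culture with cytokines was then tested on the summed ILC2-like counts of the 4 ta libraries, 2 against 2, with edgeR's quasi-likelihood test. Of 12174 genes, 0 passed an adjusted p of 0.05 (0% in either direction), so none of the 8 did, while 1609 had an unadjusted p under 0.05 and DESeq2 called 552, again with none of the 8. The log2 difference, activated minus non-activated, was -2.35 ± 1.14 (SE) for Ifngr1 with an edgeR adjusted p = 0.44, -0.46 ± 0.71 for Ifnar1 (edgeR adjusted p = 0.80), -0.06 ± 0.52 for Ifnar2 (edgeR adjusted p = 0.97) and -0.62 ± 0.45 for Ifngr2 (edgeR adjusted p = 0.59). For the kinases it was 0.21 ± 0.49 for Jak1 (edgeR adjusted p = 0.87), 0.90 ± 0.58 for Jak2 (edgeR adjusted p = 0.54), 0.79 ± 0.38 for Jak3 (edgeR adjusted p = 0.44) and 0.60 ± 0.39 for Tyk2 (edgeR adjusted p = 0.55). Ifngr1 turned on which fresh library was used. Without wk2 ta-non-activated the difference was -3.22, and without wk3 ta-non-activated it was 0.36. Leaving out wk3 ta-non-activated also turned Ifnar1 to 0.82, Ifnar2 to 0.62 and Jak1 to -0.15, and leaving out wk3 ta-activated turned Jak1 to -0.11. Each of these fits left 1 library in a group, so only their effect sizes are given. Without the 7 marker-flagged clusters, Ifngr1 stood at -2.45 (edgeR adjusted p = 0.51).

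The other genes of the pathway were read in the same fit, where no gene of any list passed. Of the 30 tested genes of the interferon-stimulated list all 30 were higher in the activated libraries, with a median log2 difference of 5.30 against -0.04 over all genes. The 3 largest fitted differences of that list were 11.5 ± 1.47 for Oas2, 10.1 ± 1.05 for Ifit3 and 9.31 ± 1.19 for Ifi44. Oas2 had no UMI in the fresh ILC2-like cells, so its fitted value depends on the prior count. All 17 tested GBP and IRG genes were higher too, with a median of 2.25, led by Iigp1 at 5.58 ± 1.17, Gbp9 at 4.23 ± 0.45 and Tgtp2 at 3.59 ± 0.89. Among the signal transducers, Stat2 was at 3.19 ± 0.48 and Stat4 at -2.65 ± 1.24.

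Of 16 inhibitors of the pathway 15 were higher and 1 lower (median 0.50), with Socs3 at 2.55 ± 0.96, Socs5 at 0.81 ± 0.48 and Ptpn1 at 0.69 ± 0.45. Socs1, an inhibitor of the Janus kinases that interferons induce, was named after its values were seen. It measured 54.2, 918, 73.7, 1081 and 527 CPM, with a fitted difference of 0.52 ± 1.16 (edgeR adjusted p = 0.86). The 3 libraries with low Ifngr1 were the 3 with high Socs1. They were also the 3 with the deepest ILC2-like cells, at medians of 15071, 11308 and 11866 UMIs against 4422 and 2819 UMIs. The part of either in the Ifngr1 level was not tested. Of 15 tested receptors that use the same kinases for other cytokines 10 were higher and 5 lower (median 0.33), with Csf2rb at 3.18 ± 0.99, Il21r at 1.83 ± 1.33 and Il2ra at 1.63 ± 0.78. Il10rb, which lies between Ifnar2 and Ifnar1 on chromosome 16, ranged from 25.8 to 39.4 CPM over the 5 libraries. Like Ifnar2 it overlaps Gm21970 on the same strand, and reads of the shared part cannot be given to 1 gene. Of 11 interferon genes only Ifng was tested (-1.67 ± 1.84), and it stood at 0.76, 4.24, 4.63, 2.99 and 0 CPM. No UMI of Ifna1, Ifna2, Ifna4, Ifna5, Ifna6, Ifnb1, Ifnl2 or Ifnl3 was found in the ILC2-like cells of any library, which allows up to 0.114, 0.106, 1.39, 0.0830 and 0.0640 CPM (3 UMIs) in the same order.

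Cells of high and low interferon score were also compared within each library. ILC2-like cells with at least 2000 UMIs were thinned to 2000, scored by the number of interferon-stimulated genes with a UMI, and split into interferon-low cells (at or below the 25th percentile of their library) and interferon-high cells (above the 75th percentile). The fresh libraries gave low cells with a score of 0 and high cells with 2 or more genes, in all 463, 300 and 94 high cells in the naive, wk2 and wk3 libraries. The ta-activated libraries gave 468 high cells with 11 to 21 genes against 687 low cells with at most 5 in wk2, and 710 high cells with 13 to 24 genes against 861 low cells with at most 7 in wk3. A score at the upper cut was held by 184 of 2076 and 253 of 3022 cells of these 2 libraries. In edgeR with the library as a block, 141 of 7338 genes passed (1.92%), 88 higher (1.2%) and 53 lower (0.722%) in interferon-high cells, and 125 of 7320 passed with the genes of the score left out.

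None of the 8 genes passed in that fit. Ifngr1 had the largest value among them, 0.55 ± 0.22 higher on the log2 scale in interferon-high cells (edgeR adjusted p = 0.26), followed by Ifnar2 at 0.38 ± 0.16 (edgeR adjusted p = 0.30) and Ifnar1 at 0.22 ± 0.18 (edgeR adjusted p = 0.62). Ifngr2 was at 0.03 ± 0.13 (edgeR adjusted p = 0.98). For the kinases the values were 0.07 ± 0.10 for Jak1, -0.30 ± 0.15 for Jak2, -0.08 ± 0.22 for Jak3 and 0.17 ± 0.21 for Tyk2, with edgeR adjusted p-values from 0.39 to 0.92. A fall of a receptor gene with rising interferon score was thus not detected, and the 4 receptor values were at or above 0 in the fit. Leaving out the 7 marker-flagged clusters removes the cluster with the highest interferon-stimulated level of both ta-activated libraries, and the lowest of wk3 ta-activated. Ifngr1 was then at 0.31 (edgeR adjusted p = 0.56). Ifngr1 passed when the GBP and IRG list was the score (0.83, edgeR adjusted p = 0.044), in a fit that called 218 of 7671 genes. It also passed when all genes with at least 1 count were tested (0.50, edgeR adjusted p = 0.016), in a fit that called 499 of 15760 genes.

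**Figure D2:**
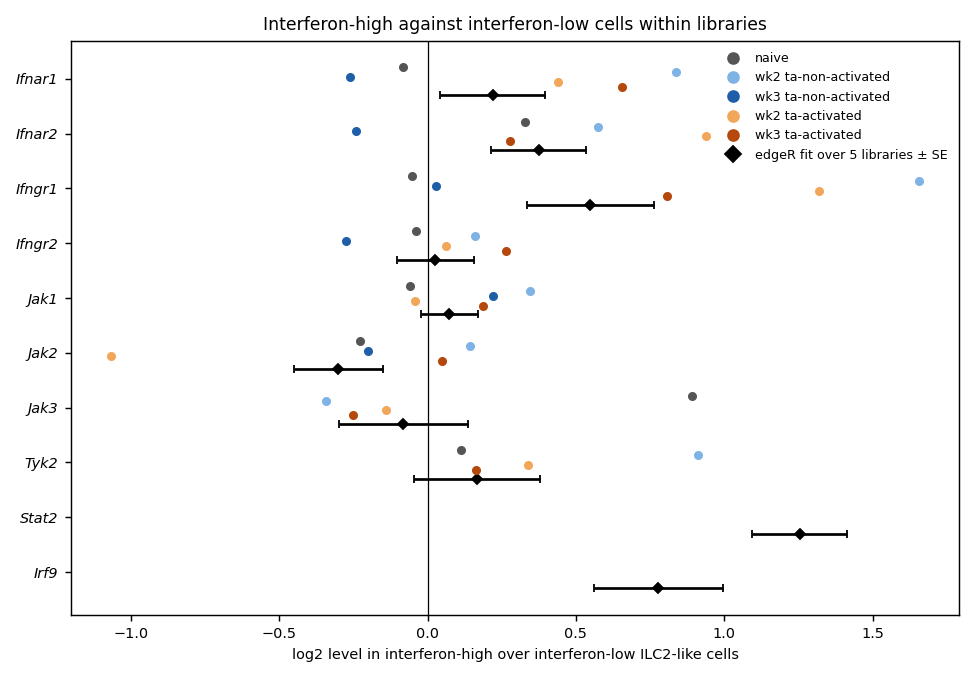
Log2 level in interferon-high over interferon-low ILC2-like cells for the 8 genes and for Stat2 and Irf9. Coloured points are single libraries (drawn where both groups held at least 3 UMIs) and black diamonds are the edgeR fit over 5 libraries with its SE, at 0.55 for Ifngr1, -0.30 for Jak2 and 1.26 for Stat2.

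Below the receptors, Stat2 rose by 1.26 ± 0.16 (edgeR adjusted p = 0.0012) in interferon-high cells, whereas Irf9 was at 0.78 ± 0.22 (edgeR adjusted p = 0.10). All 16 tested GBP and IRG genes were higher, with a list median of 1.69 against -0.02 over all genes. Of them 15 passed the threshold, from 0.97 ± 0.16 for Irf1 to 3.27 ± 0.25 for Iigp1. The 15 were Iigp1, Cxcl10, Gbp2, Gbp6, Gbp9, Gbp3, Irgm2, Ifi47, Tgtp2, Igtp, Irgm1, Gbp7, Gbp4, Gbp8 and Irf1. The interferon-stimulated list, which set the groups, had 16 of 18 tested genes past the threshold, Slfn5, Herc6, Ddx60, Ifit1, Parp14, Trim30a, Phf11b, Ifih1, Isg20, Oas1a, Oas3, Isg15, Irf7, Rtp4, Zbp1 and Xaf1. None of 14 inhibitors (median 0.14, led by Sh2b3 at 0.51, Socs7 at 0.39 and Socs3 at 0.36) and none of 10 other receptors (median 0.05, led by Il10ra at -0.61, Il2ra at -0.59 and Il2rb at -0.57) passed. No interferon gene had enough counts to be tested.

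Library by library, Ifngr1 stood at 321 CPM in interferon-low and 310 CPM in interferon-high cells of the naive library, and at 433 and 441 CPM in wk3 ta-non-activated. In these 2 libraries, where Ifngr1 is high, the groups did not differ beyond counting error. The GBP and IRG level, which the score did not use, was 205 CPM in low and 261 CPM in high naive cells. In wk3 ta-non-activated it was 256 CPM in low and 356 CPM in high cells. The groups thus differed little on that list, so the lack of an Ifngr1 difference there says little. In the 3 libraries where Ifngr1 is low it was higher in interferon-high cells, at 80.0 against 25.4 CPM in wk2 ta-non-activated (log2 ratio 1.66, 95% exact binomial interval 0.99 to 2.33), 127 against 50.9 CPM in wk2 ta-activated (1.32, 0.88 to 1.77) and 80.3 against 45.9 CPM in wk3 ta-activated (0.81, 0.38 to 1.24). The middle cells of these 3 libraries lay between, at 36.2, 82.5 and 65.1 CPM. With the 2 ta-activated libraries fitted alone, Ifngr1 passed at 1.06 ± 0.21 (edgeR adjusted p = 1.557e-05), in a fit that called 785 of 8042 genes (9.76%, with 4.79% higher and 4.97% lower). With only 2 libraries, that p-value rests on a spread estimated over all genes and says little about the spread between the libraries. A test of whether the difference was larger in cultured than in fresh libraries gave 0.87 ± 0.35 for Ifngr1 (edgeR adjusted p = 0.47).

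**Figure D3:**
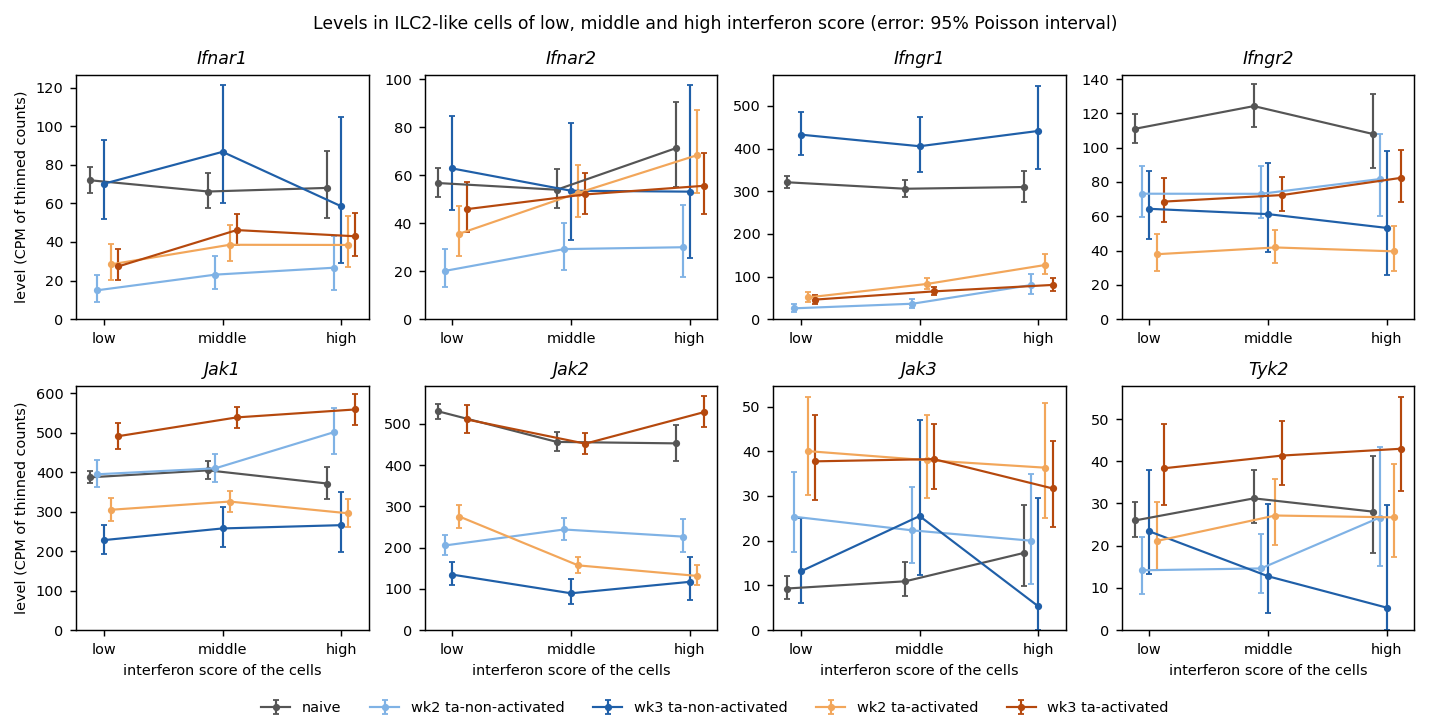
Level of each gene (CPM of counts thinned to 2000 UMIs per cell) in ILC2-like cells of low, middle and high interferon score, with 1 line per library and 95% Poisson intervals. Ifngr1 climbs from 50.9 to 127 CPM in wk2 ta-activated and stays between 306 and 321 CPM in the naive library, and Jak2 goes from 275 to 131 CPM in wk2 ta-activated.

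Depth before thinning moved with the score in the 3 libraries with low Ifngr1. Interferon-high cells had medians of 11625.5 UMIs in wk2 ta-non-activated, 8314.5 UMIs in wk2 ta-activated and 10388 UMIs in wk3 ta-activated, against 16239.5, 17318 and 14213 UMIs in interferon-low cells. Their ILC2 marker level was lower, at 10742 against 12091 CPM, 4999 against 11456 CPM and 7295 against 10101 CPM. In wk2 ta-non-activated they also had a higher NK marker level, 163 against 50 CPM, and a GBP and IRG level of 2245 against 403 CPM. The part of these markers in the Ifngr1 difference was not tested.

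The same groups were then compared within 3 bins of cells by UMIs and within clusters, a split chosen after seeing the data and given as values with no test. From the shallowest bin to the deepest, the Ifngr1 log2 ratio was 1.59, 1.16 and 0.50 in wk2 ta-non-activated, 0.48, 0.91 and 0.72 in wk2 ta-activated, and 0.33, 0.18 and 1.36 in wk3 ta-activated. All 9 ratios were above 0, and the interval excluded 0 in the shallowest bin of wk2 ta-non-activated (0.67 to 2.58) and the deepest of wk3 ta-activated (0.33 to 2.36) but in none of the others. Within clusters the ratio was 0.91, 2.15 and 0.45 in clusters 0, 1 and 2 of wk2 ta-activated and 0.33, 0.40 and 2.15 in clusters 0, 1 and 3 of wk3 ta-activated. The interval excluded 0 in cluster 1 of wk2, led by Nts and Il9 (0.96 to 3.21, 10 UMIs in interferon-high cells), and in cluster 3 of wk3 (0.49 to 3.84, 8 UMIs). In wk2 ta-non-activated it was 2.36 in cluster 0 (1.15 to 3.79), and 0.34 to 1.46 in the other 4 clusters, with intervals that spanned 0. In the naive and wk3 ta-non-activated libraries the ratios within bins and clusters lay from -0.32 to 0.30, and each interval spanned 0.

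Ifnar2 in wk2 ta-activated was at 68.4 CPM in interferon-high against 35.7 CPM in interferon-low cells (log2 ratio 0.94, 0.38 to 1.51), while in wk3 ta-activated it was at 55.6 against 45.9 CPM (0.28, -0.19 to 0.75). Ifnar1 was at 38.5 against 28.4 CPM in wk2 (0.44, -0.26 to 1.13) and at 43.0 against 27.3 CPM in wk3 ta-activated (0.65, 0.08 to 1.23). Both chains of the type I receptor measured higher in interferon-high cells of the cultured libraries, with 2 of the 4 intervals above 0. Ifngr2 was at 39.5 against 37.8 CPM and 82.4 against 68.5 CPM, with both intervals spanning 0.

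Jak2 was lower in interferon-high cells of 2 libraries, wk2 ta-activated and naive. In wk2 ta-activated it was at 131 CPM in interferon-high and 275 CPM in interferon-low cells (log2 ratio -1.07, -1.37 to -0.77), and the ratio was -1.07, -0.69 and -0.90 within the 3 bins of UMIs. In wk3 ta-activated, where the interferon-stimulated list was higher still, Jak2 was at 528 against 510 CPM (0.05, -0.09 to 0.19). In the naive library it was at 452 against 530 CPM (-0.23, -0.38 to -0.08), and in the 2 ta-non-activated libraries the intervals spanned 0. With the 2 ta-activated libraries fitted alone Jak2 passed at -0.46 ± 0.16 (edgeR adjusted p = 0.0495). Of these 2 only wk2 ta-activated showed the fall, and that p-value says little about the spread between them. Within cluster 1 of wk2 ta-activated Jak2 was at 328 CPM in interferon-high and 347 CPM in interferon-low cells, and within cluster 0 at 134 and 116 CPM, with both intervals of the ratio spanning 0. Within cluster 2 it was at 49.4 and 122 CPM (log2 ratio -1.30, -2.62 to -0.17).

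Clusters of ILC2-like cells showed how far the genes vary inside a library. In wk2 ta-activated, cluster 0, led by Trim30c, Ifit3 and Ifit1, had the highest interferon-stimulated level, 12167 CPM, and cluster 1 the lowest, 4045 CPM. Cluster 0 also had more Ifngr1 (93.6 against 35.5 CPM), Ifnar1 (41.7 against 26.2 CPM) and Ifnar2 (67.4 against 36.1 CPM), a close level of Ifngr2 (40.6 against 38.9 CPM) and less Jak2 (138 against 339 CPM). Cluster 2 went the other way. Its interferon-stimulated level, 7414 CPM, was above that of cluster 1. It held the lowest Ifngr1 (32.8 CPM), Ifnar1 (23.8 CPM) and Ifngr2 (28.3 CPM) of the 4 ILC2-like clusters. In the naive library, where the interferon-stimulated level spanned 231 CPM in cluster 0 to 302 CPM in cluster 1, the cluster with the higher level had less Ifngr1 (301 against 386 CPM), Ifnar1 (79.8 against 108 CPM) and Ifngr2 (129 against 149 CPM), and close levels of Ifnar2 (67.0 against 64.0 CPM). In wk3 ta-activated the cluster with the highest interferon-stimulated level, 13567 CPM, had more than the one with the lowest of Ifngr1 (44.5 against 26.5 CPM), Ifnar1 (47.0 against 29.3 CPM), Ifnar2 (54.6 against 29.7 CPM) and Ifngr2 (65.4 against 54.7 CPM). In wk2 ta-non-activated the same comparison gave 36.0 against 34.1 CPM for Ifngr1, 18.1 against 17.4 CPM for Ifnar1, 30.3 against 21.8 CPM for Ifnar2 and 84.5 against 76.4 CPM for Ifngr2. The wk3 ta-activated pair are both among the 7 marker-flagged clusters, with medians of 11051 against 31294 UMIs. Clusters 0 and 1 of wk2 ta-activated had medians of 8190 against 19915 UMIs and ILC2 marker levels of 4534 against 13833 CPM. The part of depth and markers in these differences was not tested. The highest Ifngr1 of wk2 ta-activated, 397 CPM, was in the 70 cells of cluster 5, where stress genes such as Ddit3, Atf5 and Ppp1r15a led. In wk3 ta-activated, Ifngr1 ranged from 25.4 to 74.3 CPM over 4 clusters. In wk2 ta-non-activated it ranged from 24.5 to 44.6 CPM over 5 clusters, and the lowest naive ILC2-like cluster was at 262 CPM.

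**Figure D4:**
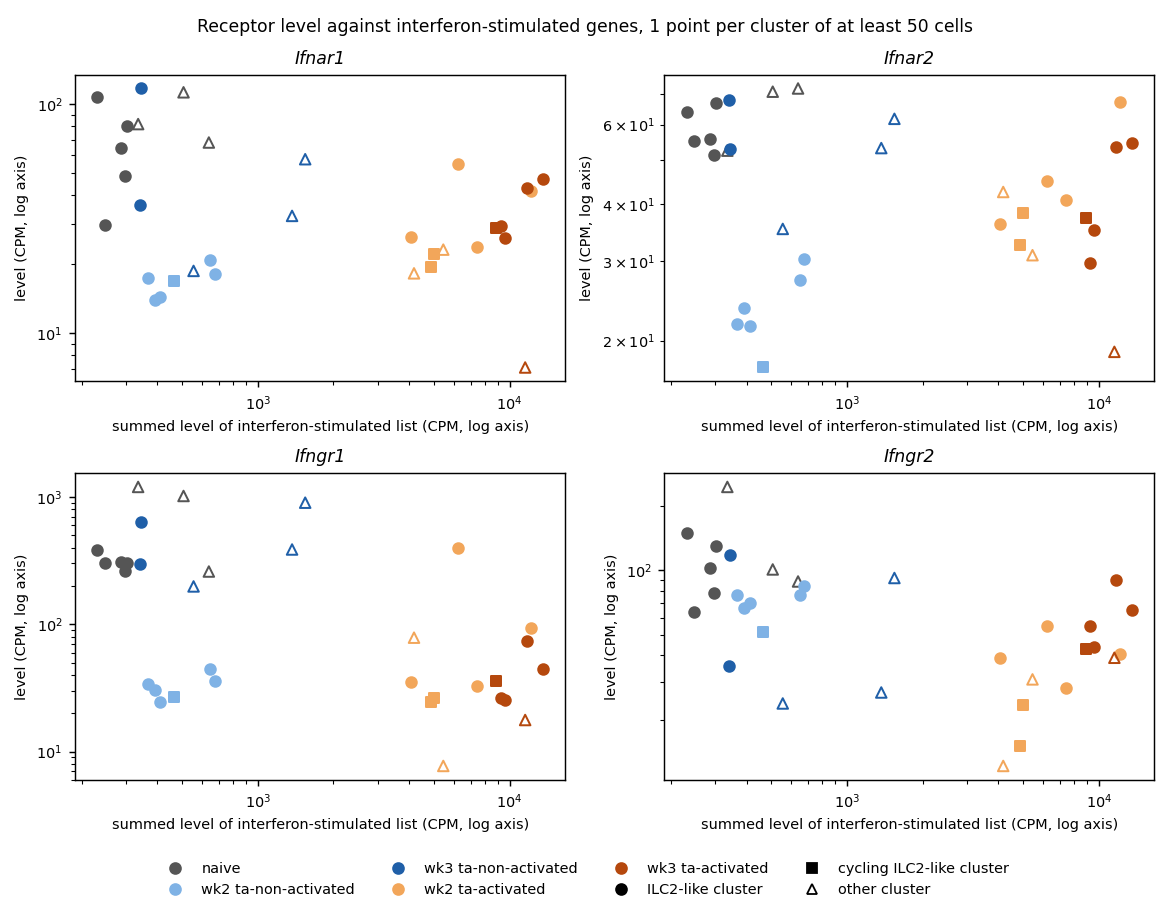
Level of each receptor gene against the summed interferon-stimulated level (both CPM, log axes), with 1 point per cluster of at least 50 cells. ILC2-like clusters of wk2 ta-non-activated lie at 24.5 to 44.6 CPM of Ifngr1 and 367 to 679 CPM of the interferon-stimulated list, and those of the naive library at 262 to 386 CPM and 231 to 302 CPM.

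In the naive library Jak2 ranged from 194 CPM in cluster 2, led by Cst7 and Sftpc, to 907 CPM in cluster 0, led by Ccl1, Cxcl2 and Areg. The same 2 clusters held the lowest and highest levels of Ifnar1 (29.7 and 108 CPM) and Ifngr2 (63.8 and 149 CPM). In wk3 ta-non-activated, cluster 2, led by Areg and Ccl1, held more than cluster 0 of Ifngr1 (634 against 296 CPM), Ifnar1 (117 against 36.4 CPM), Ifngr2 (118 against 35.6 CPM) and Jak2 (194 against 72.9 CPM). The interferon-stimulated levels of these clusters were 343 and 342 CPM.

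Outside the ILC2-like class, Ifngr1 was highest in cells with NK or T cell markers. In the naive library it was at 1017 CPM in 501 NK or ILC1-like cells and at 1197 CPM in 417 cells with T cell and type 17 markers, against 322 CPM in ILC2-like cells, and 79.7% and 86.8% of them had an Ifngr1 UMI at 2000 UMIs. The cells with type 17 markers also held the highest Ifngr2 of any class of 50 or more cells, 245 CPM. In wk3 ta-non-activated the T-lineage clusters were low in Jak2, at 11.8 CPM in 448 early thymocyte-like cells led by Rag1 and Ptcra (1.13% with a UMI at 2000 UMIs) and 11.5 CPM in 408 unnamed cells, against 125 CPM in ILC2-like cells (18.4%). Tyk2 was low in the same cells, at 6.5 and 4.04 CPM against 20.4 CPM, and so was Jak3, at 8.13 and 4.67 CPM against 17.6 CPM. Over all cells of wk3 ta-non-activated Jak2 stood at 37.6 CPM.

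Cycling ILC2-like cells of wk2 ta-non-activated, wk2 ta-activated and wk3 ta-activated held less Jak2 than the other ILC2-like cells of their library, at 107, 102 and 277 CPM against 230, 245 and 504 CPM. Ifngr1 was lower in them as well, at 27.0, 26.0 and 35.6 CPM against 33.1, 51.0 and 47.8 CPM. In the ta-activated wk2 library 67 NK or ILC1-like cells had 78.5 CPM of Ifngr1 and 41 T cell-like cells 386 CPM, against 51.0 CPM in the ILC2-like cells.

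The genes most like each member over 16 library-by-class points, by Pearson's r of log2(CPM + 1) among 5863 genes at a mean of 20 CPM or more, were Dot1l and B4galt1 for Ifnar1 (r = 0.95 for both), Malat1 and 5031425E22Rik for Ifnar2 (0.92 for both), Klf3 and Cxcr4 for Ifngr1 (0.97 for both) and Ccdc9 and P2rx4 for Ifngr2 (0.93 and 0.90). For the kinases they were Lypla2 and Tnip1 for Jak1 (0.94 and 0.93), Arid5b and Hlf for Jak2 (0.93 for both), Nagk and Pold4 for Jak3 (0.94 and 0.93) and Dennd1c and Abca7 for Tyk2 (0.95 and 0.94). Points of 1 library share its capture and depth, so these values are a description. Between members, Ifngr1 and Jak3 had the most opposed pattern, with r = -0.87.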

How the data were processed

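Per the labels and the study's methods, sorted lung ILC2s of 5 libraries were sequenced with 10x 3' chemistry. The deposited values are unnormalised UMI counts for each gene in each barcode, made by the authors. The submitters' processing notes name Cell Ranger 3.0.2, Seurat 3 and GRCm38, whereas the matrix header of the naive library names Cell Ranger 6.0.0 and those of the other 4 name 3.0.2, so the naive counts may differ through processing. Deposited UMIs per library ranged from 9910201 to 71126524.

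Of 18628 barcodes, 16530 were kept, those with 200 genes or more and less than 5% of counts from mitochondrial genes. Each library was clustered separately (2000 variable genes, 30 components, leidenalg 0.10.2, resolution 0.6), and clusters were classed by marker lists. No doublet caller was run, and an alternative left out the 6% of cells with the most UMIs. A level is the summed counts of a class scaled to the same total (CPM) with an exact 95% Poisson interval. Summed counts were tested with the quasi-likelihood test of edgeR 4.0.16 (R 4.3.3, TMM, filterByExpr) with Benjamini-Hochberg adjustment, and with DESeq2 1.42.0 as an alternative. Only the edgeR test was run on simulated data. The interferon score was set on counts thinned to 2000 UMIs per cell. Ratios to the single naive library are of CPM + 1 and have no test. Nothing in the labels says that libraries of a group were separate experiments beyond week and capture. P-values therefore measure at most the spread between these libraries, and little of it where a fit held only 2 libraries. Named genes were the 8 members, every listed gene past a threshold, otherwise the 3 with the largest change per list, and the 2 genes most like each member. The members and lists were chosen with earlier results of these data known. Gene positions are from GENCODE on GRCm38 (27639 of 27726 genes found). A listed gene is not reported here.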

Additional observations from a re-analysis of the deposited data

Results flagged for a closer look

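For 4 of the 8 genes the difference between ta-activated and ta-non-activated ILC2-like cells had opposite signs at wk2 and wk3. The log2 ratio of activated to non-activated CPM + 1 was 0.62 at wk2 and -3.20 at wk3 for Ifngr1 (wk3 minus wk2 -3.83), 0.83 and -0.88 for Ifnar1 (-1.71), 0.80 and -0.42 for Ifnar2 (-1.22), and -0.28 and 1.03 for Jak1 (1.31). With 1 library per week and group the difference between weeks was not tested. The ILC2-like cells of the wk3 ta-non-activated library had fewer UMIs (median 2819, against 15071 in wk2 ta-non-activated), a lower ILC2 marker level (4792 against 12124 CPM) and a higher T cell marker level (1405 against 269 CPM), and the part of these in the result was not tested.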

How the results depend on the processing

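Activated against non-activated cells gave 0 calls in edgeR, 552 with DESeq2, 304 with all genes of at least 1 count and 84 with the replicate block by week. Without 1 library it gave 164 to 1437 (highest without wk3 ta-non-activated), where a lone library is assumed to vary like the other group. The deviations of the wk2 ta-non-activated and wk2 ta-activated libraries from their group means had a correlation of -0.00873 over 12174 genes. With 2 libraries per group, that value cannot show whether libraries of a week share mice. The block called none of the 8 genes. Interferon-high against interferon-low cells gave 141 calls, 499 with all genes, 0 with no replicate block (33 at an unadjusted p under 0.05), 63 when thinned to 1000 UMIs, 78 with all counts, 218 with the GBP and IRG score, 785 in ta-activated and 23 in fresh libraries alone, 76 without the 7 clusters, an alternative chosen after seeing the data, and 26 (without wk3 ta-activated) to 267 (without naive) without 1 library. Genes past 2-fold from naive numbered 4 instead of 1 in wk3 ta-non-activated over all cells, and 5 instead of 2 in wk3 ta-activated after the intron-length median was subtracted. That subtraction also took Jak2 under 2-fold in both wk2 libraries (-0.62 fresh, -0.56 cultured) and put Ifngr2 (-1.08) and Jak1 (1.44) past it in wk2 ta-non-activated. The cause was not tested.

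Signs turned for values under their error or resting on 1 library. In the activated comparison these were Ifnar1 (0.073 over all cells), Ifnar2 (0.063 with library sizes only, 0.051 with the block, 0.14 over all cells, 0.063 without the cells with the most UMIs), and, without 1 library, Ifnar1 (-1.14 to 0.82), Ifnar2 (-0.53 to 0.62), Ifngr1 (-3.22 to 0.36) and Jak1 (-0.15 to 0.67), the lowest of the first 3 without wk2 ta-non-activated and the highest without wk3 ta-non-activated. Jak1 was at -0.11 without wk3 ta-activated. In the score comparison they were Ifnar1 (-0.062 in fresh libraries), Ifngr2 (-0.023 with all genes, -0.022 with no block, -0.098 in fresh libraries, -0.034 without the 7 clusters, -0.067 to 0.092 without 1 library) and Jak3 (0.055 with all counts, 0.028 split at the median, 0.11 in fresh libraries, 0.20 without the 7 clusters). Of 40 levels, 1 moved by over 1.5 times (Ifngr1 in wk2 ta-activated, 86.5 CPM as a mean over cells).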
